A study of Mus musculus with 4 samples.

Results

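Retinoic acid controls gene expression in the early embryo and is widely used to drive embryonic stem cells (ESCs) out of pluripotency. It is made inside the cell from retinol by way of retinaldehyde, is carried by small binding proteins, and acts in the nucleus through retinoic acid receptors (RARs) that sit on DNA together with retinoid X receptors (RXRs). Enzymes of the CYP26 family break it down, and several genes of the pathway, Cyp26a1 and Rarb among them, are themselves induced by retinoic acid. Here 9 genes of this pathway were followed in mouse ESCs: Aldh1a2 and Dhrs3, which act on retinaldehyde, Cyp26a1 and Cyp26b1 for breakdown, Crabp1 and Crabp2 for binding, and the receptors Rara, Rarb and Rarg. They were taken by name, by their role in the pathway, with earlier results of these data known. All 9 were found among the 49997 genes of the deposited table, and all 9 passed the filter on low counts that left 18341 genes for testing.

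To ask how loss of the m6A reader YTHDF2 affects these genes, RNA-seq libraries of control and Ythdf2-knockdown cells were compared. YTHDF2 binds mRNAs carrying N6-methyladenosine (m6A) and promotes their decay. The cells were E14 ESCs, a pluripotent line from the early mouse embryo, infected with lentivirus that encoded either a scrambled short hairpin RNA (shScramble, 2 libraries) or one against Ythdf2 (shYthdf2, 2 libraries), as independent biological replicates, and both groups were stable lines under puromycin selection grown without feeders with leukemia inhibitory factor (LIF). Per the study's methods the ESCs used for knockdown also carried a tdTomato transgene driven by the MERVL promoter, and which of the hairpins listed against Ythdf2 was used is not given in the sources used here. The components named for the medium include no added retinoid, and the retinoid content of its serum replacement was not measured.

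The libraries held between 31113006 and 36422510 counted reads, with 25155 to 25745 genes detected. The targeted gene was examined first. Ythdf2 had 3365 and 2760 reads in shScramble replicates 1 and 2, and 1086 and 1082 in the same replicates of shYthdf2, and all pairs of values are given in that order. Both knockdown libraries were far below both controls, and the level fell to 34.2% of control (log2 fold change −1.55, SE 0.11, adjusted p = 0.0007 by edgeR's quasi-likelihood F test). Pluripotency markers summed to 6310 to 7103 CPM (reads scaled to a common library total) in the 4 libraries, led by Dppa5a, and 0 of 10 passed the edgeR test, with 2 lower (Nanog and Dppa5a) at an unadjusted p under 0.05. Of the markers of other cell states, 5 of 17 tested 2-cell-like (2C-like) genes were called higher (Zscan4a, Usp17la, Usp17le, Gm4340 and Gm21761, of gene families with near-identical copies), and the list summed to 72.6 and 109 CPM in shScramble against 153 and 400 CPM in shYthdf2. Among neuroectoderm markers 2 of 8 tested (Sox3 and Nes) were called higher (176 to 236 CPM summed in shScramble and 270 to 353 CPM in shYthdf2, most abundant Tubb3). In the mesoderm list 1 of 9 tested, Fgf17, also the most abundant, was called lower (56.1 to 64.2 against 39.4 to 47.2 CPM), and in the germline list 3 of 11 (Sycp1, Mael and Dmc1) were called lower (476 to 574 against 266 to 410 CPM, most abundant Dazl). Primitive endoderm markers (498 to 652 CPM, most abundant Sparc) and fibroblast markers (60.5 to 74.1 CPM, most abundant Fbln1, with Dcn at 0 reads) had 0 of 14 and 0 of 5 called by edgeR, with 2 higher (Col4a1 and Sparc) and 1 lower (Col1a1) at an unadjusted p under 0.05. Over all tested genes edgeR called 2.43% higher and 1.49% lower. At an unadjusted edgeR p under 0.05 these shares were 11% and 9.8%. The part of the markers in the results that follow was not tested, and in bulk RNA fewer cells of a type and less RNA per cell cannot be told apart.

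No retinoid gene passed the test, and the largest difference was seen for Cyp26a1. By edgeR 0 of the 9 genes had an adjusted p under 0.05, where 3.91% of all tested genes did (2.43% higher and 1.49% lower). At an unadjusted p under 0.05 there was 1 of the 9, Cyp26a1, lower in shYthdf2, beside 9.8% of all tested genes lower and 20.8% in either direction. Cyp26a1 entered the test only through its shScramble libraries, as neither shYthdf2 library reached the filter on low counts. DESeq2 and limma-voom also called 0 of the 9, where they called 8.9% and 3.39% of the genes to which they gave an adjusted p. DESeq2 gave none to Cyp26a1, so it could not call that gene. The study's own criteria, an unadjusted DESeq2 p of at most 0.05 with a log2 fold change of 1 or more in size, likewise took 0 of the 9 and 2.88% of all genes with a read. The groups did not overlap for 6 of the 9 genes, 3 higher (Cyp26b1, Crabp2 and Dhrs3) and 3 lower (Cyp26a1, Rarb and Aldh1a2), where 51.8% of all tested genes did not overlap (26.2% higher and 25.5% lower). The median log2 fold change of the 9 genes was 0.03, beside 0.00 over all tested genes.

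**Figure D1:**
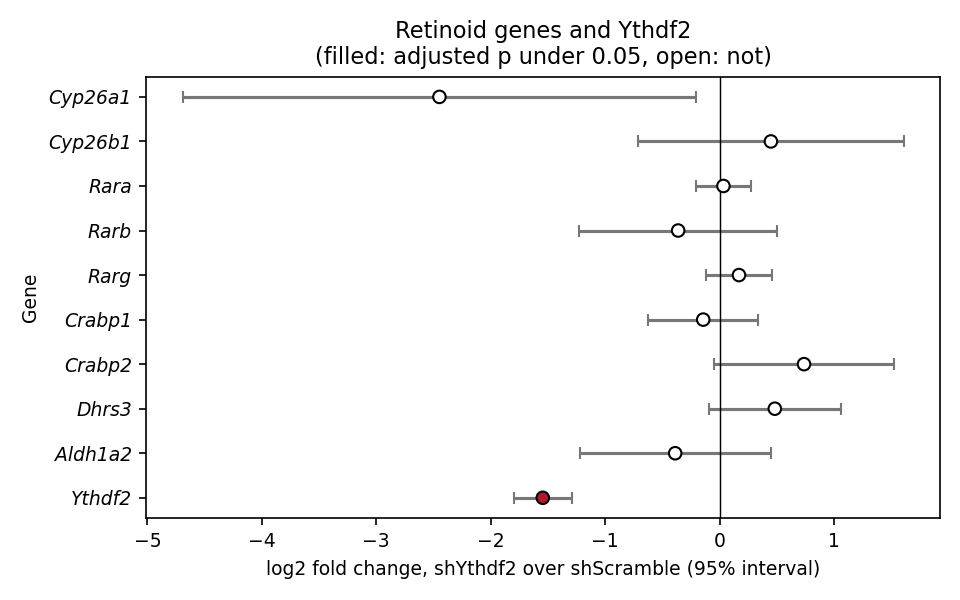
The log2 fold change of each retinoid gene and of Ythdf2 (x axis, shYthdf2 over shScramble, 4 libraries) is drawn as a point with its 95% interval from the edgeR fit, filled where the adjusted p was under 0.05. Among these genes Ythdf2 alone is filled, the interval of Cyp26a1 runs from −4.69 to −0.20, and the intervals of the other 8 retinoid genes include 0.

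The retinoid genes differed far more from one another than between the groups. On the RPKM scale (reads per kilobase of gene length, scaled to a common library total), Rarg was the most abundant, with a mean of 63.0 over the 4 libraries, and lay above 93.9% of all tested genes. Rara followed at 15.7 RPKM and Crabp1 at 11.7 RPKM, above 76.8% and 71.8% of tested genes. Crabp2, at 3.15 RPKM, lay above 48.7% of tested genes. On this scale the library ranges of these first 4 genes did not touch those of their neighbours in the order. The remaining 5 were scarce: Dhrs3 at 0.861 and Aldh1a2 at 0.782 RPKM had overlapping ranges, as did Rarb at 0.391 with Cyp26a1 at 0.206 RPKM, and Cyp26a1 with Cyp26b1 at 0.0566 RPKM, the lowest of the 9 and above only 2.13% of tested genes. On the scale of TPM, which rescales RPKM to a common sum, the order was the same, from 162 for Rarg to 0.145 for Cyp26b1. The lengths in the table cover all exons of a gene, and for Dhrs3 (5552 bases) and Cyp26b1 (12492 bases) they are well above the longest coding transcripts in GENCODE (2337 and 4495 bases). On those transcript lengths, a scaling added after the values were seen, the order held, but the range of Dhrs3 (1.57 to 2.53 RPKM) overlapped that of Crabp2 (1.64 to 4.05 RPKM) and no longer that of Aldh1a2.

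**Figure D2:**
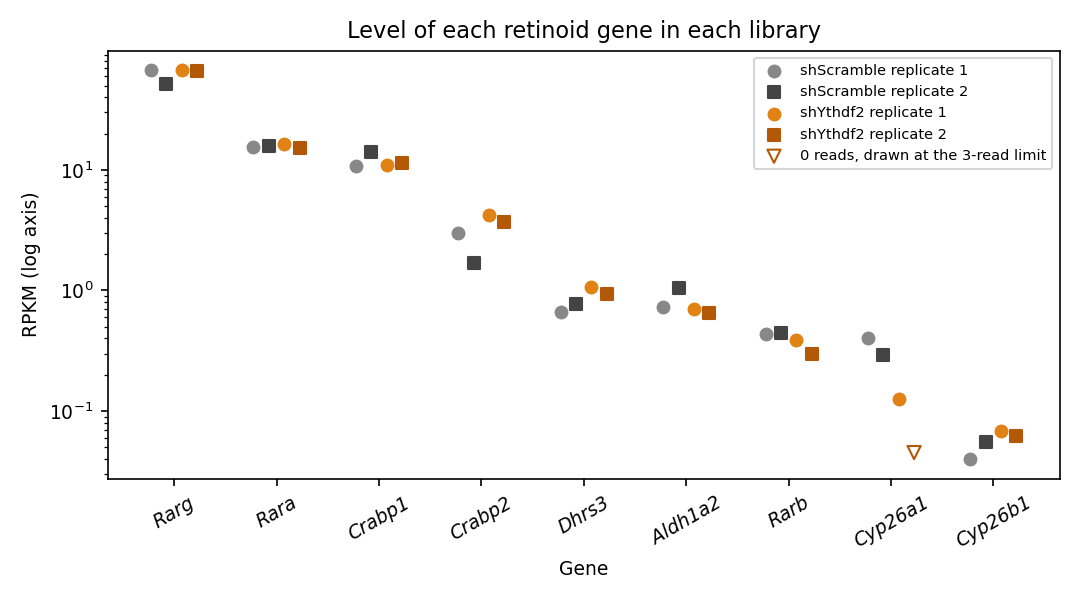
RPKM of each retinoid gene (log y axis) is drawn for each library, grey for shScramble and orange for shYthdf2, with a circle for replicate 1 and a square for replicate 2. The genes span from 63.0 RPKM for Rarg to 0.0566 RPKM for Cyp26b1, and the open triangle marks the library with 0 Cyp26a1 reads, drawn at the limit of 3 reads.

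Among the enzymes that act on retinaldehyde, neither passed the test. Aldh1a2, chr9:71215789-71296243, plus strand (mm10), encodes the retinaldehyde dehydrogenase that carries out the last step of retinoic acid synthesis. It had 59 and 75 reads in shScramble and 54 and 53 in shYthdf2, or 0.724 and 1.05 against 0.698 and 0.654 RPKM. Only shScramble replicate 2 stood clearly above the rest, and the log2 fold change of −0.39 (SE 0.37, 95% interval −1.22 to 0.44, adjusted p = 0.61 by edgeR) became −0.10 without that library and −0.64 without shScramble replicate 1. Its relatives Aldh1a1 and Aldh1a3 had at most 14 and 16 reads in any library and were not tested, so Aldh1a2 carried most of the few reads for retinaldehyde dehydrogenases of this family.

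Dhrs3, chr4:144892534-144928209, plus strand, reduces retinaldehyde back to retinol and so draws substrate away from synthesis. It had 132 and 136 reads in shScramble and 202 and 187 in shYthdf2, or 0.660 and 0.778 against 1.06 and 0.941 RPKM. Both knockdown libraries were above both controls, at 139.5% of the control level in the fit (log2 fold change 0.48, SE 0.26, 95% interval −0.09 to 1.05). The difference did not pass (adjusted p = 0.33 by edgeR), and it lay between 0.37 and 0.60 on the log2 scale when any single library was left out. The Dhrs3 locus overlaps Vps13d on the other strand, but no exon bases are shared.

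The breakdown enzymes were the scarcest of the 9 genes by RPKM. Cyp26a1, chr19:37697738-37701536, plus strand, encodes the main retinoic acid hydroxylase of the early embryo. It had 27 and 17 reads in shScramble and 8 and 0 in shYthdf2, or 0.405 and 0.292 against 0.126 and 0 RPKM. Every knockdown library was below every control, with shYthdf2 replicate 2 at 0, beside a shScramble mean of 0.645 CPM ± 0.149 (SD, n = 2). At the depth of that library a count of 0 allows up to 0.0838 CPM (3 reads) if reads are independent. Reads of a pair were counted one by one, so the limit is higher than this. The fitted log2 fold change was −2.45 (SE 1.00, 95% interval −4.69 to −0.20), with an unadjusted p of 0.035 and an adjusted p of 0.20 by edgeR. Only the 2 shScramble libraries exceeded the filter on low counts at 0.285 CPM, so the gene could enter the test only by being higher there.

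The Cyp26a1 call depended on the fit. It passed in 3 of the 10 other fits that gave it an adjusted p, which ran from 0.0149 to 0.40 over them: with no filter on low counts (−2.44, adjusted p = 0.0445), with the replicate number as a block (−2.70, adjusted p = 0.021) and without shYthdf2 replicate 1, where the group is left with the single library at 0 reads and the fitted value has no meaning as a size. Without shYthdf2 replicate 2 the log2 fold change was −1.45 (adjusted p = 0.40 by edgeR). Over all genes 445 were called higher and 273 lower in the main fit. With no filter these numbers were 1095 and 843, and with the replicate block 1851 and 1674. For Cyp26a1 DESeq2 estimated −2.47 and limma-voom −3.48, with no adjusted p from DESeq2 and an adjusted p of 0.12 from limma-voom. Since both reads of a pair were counted one by one, the molecules behind the Cyp26a1 reads are fewer than the reads.

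Cyp26b1, a second hydroxylase with the same substrate, lies at chr6:84571414-84593908, minus strand. It had 18 and 22 reads in shScramble and 29 and 28 in shYthdf2, the opposite order to Cyp26a1. The groups did not overlap, but the log2 fold change of 0.45 had a wide interval (SE 0.52, 95% interval −0.71 to 1.61, adjusted p = 0.68 by edgeR). The third member of the family, Cyp26c1, had between 2 and 4 reads per library and was not tested. Read together, Cyp26a1 gave 91.0% and 83.9% of the summed RPKM of Cyp26a1 and Cyp26b1 in shScramble and 65.1% and 0% in shYthdf2, and the sum itself was 0.445 and 0.347 RPKM against 0.194 and 0.0626 RPKM. These shares use the lengths in the table and rest on at most 29 reads of either gene in a library. On the lengths of the longest coding transcripts, Cyp26a1 had 0.419 and 0.301 RPKM in shScramble against 0.131 and 0 in shYthdf2. Cyp26b1 had 0.111 and 0.155 against 0.189 and 0.174 RPKM, and so lay above Cyp26a1 in both shYthdf2 libraries on that scale.

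Cyp26a1 and Rarb are textbook targets of retinoic acid receptors, which bind a direct repeat of a 6-base motif with 5 bases between the copies (DR5). Promoter sequences from RefSeq (GRCm38.p6, 250 bases before to 50 after each annotated start) were available for 8 of the 9 genes, in 14 windows, with none for Crabp2. They were searched on both strands for copies of AGGTCA, or of its variants AGTTCA and GGGTCA and the variant GGTTCA, repeated in the same orientation. A DR5 was present in 2 of the 14 windows, those of Rarb and Cyp26a1, against 32 of all 32851 windows (0.0974%) and 10 of the 16658 windows of tested genes (0.0600%). None was found in the 31 windows of the retinol list, the 26 of the RXR and coregulator list or the 25 of the retinoic acid response list. Those windows covered 23, 17 and 19 of the listed genes. The lists are described further on. Repeats with 1 or 2 bases between the copies were found in 0.222% and 0.268% of all windows and in none of the 14. As Cyp26a1 and Rarb were known as targets before the search, their 2 matches could be foreseen and are not a test. A match is a description of the letters and not of binding. Both stretches are shown as the DR5 matches found among the 9 genes, with the repeated copies in capitals, each as 30 bases on the minus strand of the genome.
Rarb, chr14:16575506-16575535: gggaagGGTTCAccgaaAGTTCActcgcat
Cyp26a1, chr19:37697770-37697799: acaaattAGTTCAcccaaAGTTCAtcttta
The Rarb repeat lies from −53 to −37 relative to the annotated start, on the strand of the gene. That of Cyp26a1 lies from −32 to −16 and reads on the strand opposite to the gene. Both stretches fall inside the extents that the table gives for the genes, which include further starts upstream.

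The receptors differed sharply in level, and none passed the test. Rarg, chr15:102234938-102257522, minus strand, had 8604 and 5800 reads in shScramble and 8163 and 8460 in shYthdf2, or 67.0 and 51.6 against 67.0 and 66.3 RPKM. Of the 4 libraries shScramble replicate 2 was low and the rest were close together. The groups overlapped because shScramble replicate 1, at 238.9 CPM, lay just above both knockdown libraries, at 238.8 and 236.4 CPM. The log2 fold change was 0.17 (SE 0.13, 95% interval −0.12 to 0.46, adjusted p = 0.51 by edgeR), and it was −0.01 without shScramble replicate 2.

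Rara, chr11:98927800-98974942, plus strand, had the smallest difference of the 9 genes. It had 2627 and 2352 reads in shScramble and 2672 and 2603 in shYthdf2, or 15.4 and 15.7 against 16.5 and 15.3 RPKM. The groups overlapped, and the log2 fold change was 0.03 (SE 0.11, adjusted p = 0.91 by edgeR) with a 95% interval of −0.21 to 0.27. The antisense gene Gm46294 shares 271 exon bases with Rara, and counting ignored strand. Gm46294 itself had between 20 and 30 reads per library, beside at least 2352 for Rara.

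Rarb, chr14:16430839-17082331, minus strand, was the scarce receptor. It had 59 and 53 reads in shScramble and 50 and 40 in shYthdf2, or 0.434 and 0.445 against 0.387 and 0.296 RPKM. Both knockdown libraries were slightly below both controls, a difference within the error of the fit (log2 fold change −0.36, SE 0.39, 95% interval −1.23 to 0.50, adjusted p = 0.65 by edgeR).

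As a share of the summed RPKM of the RARs, Rarg gave 80.9% and 76.2% in shScramble and 79.9% and 80.9% in shYthdf2. Rara gave 18.5% and 23.2% against 19.6% and 18.7%, and Rarb between 0.361% and 0.657%. Rarg was between 3.29 and 4.36 times as abundant as Rara in every library, per length. The summed level was 82.8 and 67.8 RPKM in shScramble and 83.8 and 81.9 RPKM in shYthdf2, with both knockdown libraries close to shScramble replicate 1.

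**Figure D3:**
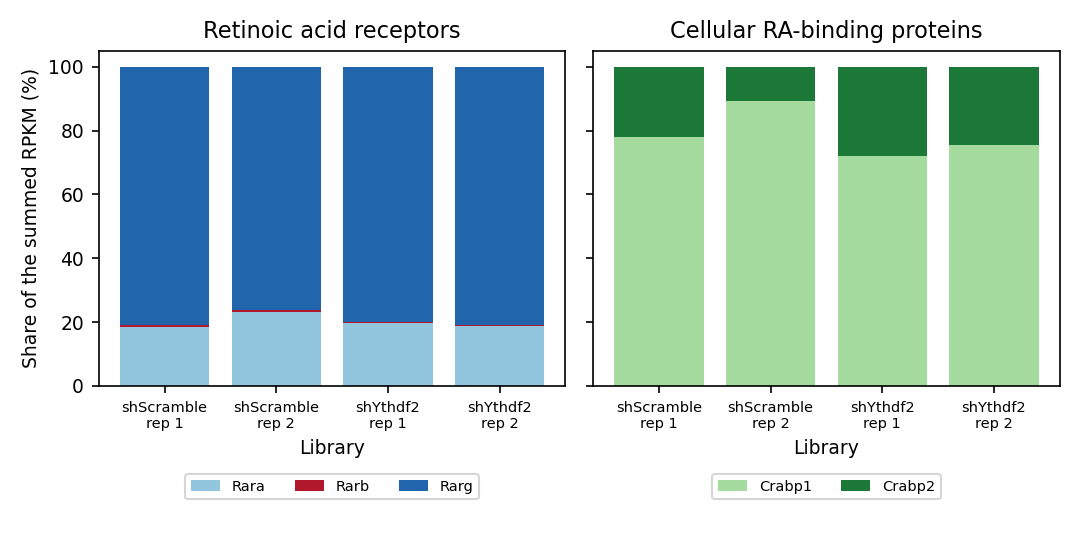
Stacked bars give the share of the summed RPKM (y axis, %) held by Rara, Rarb and Rarg (left) and by Crabp1 and Crabp2 (right) in each of the 4 libraries. Rarg holds between 76.2% and 80.9% in every library, and the share of Crabp2 is lowest in shScramble replicate 2, at 10.8%.

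Of the cellular retinoic acid-binding proteins, Crabp1 was the more abundant in every library. Crabp1, chr9:54764748-54773110, plus strand, holds retinoic acid in the cytoplasm and is linked to its breakdown. It had 308 and 352 reads in shScramble and 298 and 326 in shYthdf2, or 10.7 and 13.9 against 10.9 and 11.4 RPKM. The knockdown values lay between the control values, and the log2 fold change was −0.14 (SE 0.21, 95% interval −0.62 to 0.33, adjusted p = 0.76 by edgeR).

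Crabp2, chr3:87948693-87953372, plus strand, brings retinoic acid to the receptors in the nucleus. It had 98 and 48 reads in shScramble and 129 and 119 in shYthdf2, or 3.02 and 1.69 against 4.19 and 3.69 RPKM. Both knockdown libraries were above both controls, and shScramble replicate 2 was the lowest. In the fit Crabp2 was 1.67 times its control level, a difference that did not pass (log2 fold change 0.74, SE 0.35, 95% interval −0.05 to 1.52, adjusted p = 0.27 by edgeR). The size hung on the controls: it was 0.38 on the log2 scale without shScramble replicate 2 and 1.22 without shScramble replicate 1. Per length, the ratio of Crabp1 to Crabp2 was 3.53 and 8.23 in shScramble and 2.59 and 3.07 in shYthdf2, so that Crabp2 held 22.1% and 10.8% of their sum against 27.8% and 24.5%. The sum of the pair was 13.7 and 15.6 against 15.1 and 15.1 RPKM.

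Further genes of the pathway were then examined as lists, which had been written with earlier results of these data known. For uptake, storage and oxidation of retinol, 27 of 28 listed genes were in the table and 14 could be tested. By edgeR, DESeq2 and limma-voom 0 of the 14 passed, 5 had an unadjusted edgeR p under 0.05 (2 higher, Dhrs4 and Adh5, and 3 lower, Rbp4, Rdh11 and Dhrs7) beside 20.8% of all tested genes, and the median log2 fold change was −0.18. The groups did not overlap for 9 of the 14, 4 higher and 5 lower, beside 51.8% of all tested genes (26.2% higher and 25.5% lower). Dhrs7, a dehydrogenase/reductase of the same superfamily as Dhrs3, had 167 and 281 reads in shScramble and 96 and 136 in shYthdf2, without overlap (log2 fold change −1.03, SE 0.34, adjusted p = 0.12 by edgeR). It passed in 4 of the 13 other fits, with adjusted p from 0.00136 to 0.66, and the value ran from −1.43 when shScramble replicate 1 was left out to −0.49 when shScramble replicate 2 was.

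Rbp4, which carries retinol in blood, had 61 and 75 reads against 20 and 40 (log2 fold change −1.25, SE 0.45, adjusted p = 0.15 by edgeR). It passed in 2 of the 13 other fits, with the replicate block and without shYthdf2 replicate 2 (−1.79), and was −0.86 without shYthdf2 replicate 1 (adjusted p from 0.0159 to 0.48 over those fits). Rdh11, a retinol dehydrogenase, had 669 and 869 reads against 487 and 634, with every shYthdf2 library below every control (log2 fold change −0.53, SE 0.21, adjusted p = 0.19 by edgeR), and passed in 3 of the 13 other fits, with values from −0.79 to −0.22. Adh5, an alcohol dehydrogenase that every cell uses for formaldehyde, was the most abundant gene of this list, and Dhrs9 had no read in any library. The retinol dehydrogenase Rdh10, which makes retinaldehyde in the embryo, had 153 and 109 reads against 144 and 138 (log2 fold change 0.06, SE 0.27), and the storage enzyme Lrat had at most 12 reads in a library.

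For RXRs, coregulators and other retinoid-binding proteins, 22 of 23 genes were tested, all but Rorb, which had no read. By edgeR and limma-voom 0 passed, DESeq2 called 1 lower, and 3 were higher (Rxra, Rxrg and Ppard) and 3 lower (Ncoa1, Carm1 and Sin3a) at an unadjusted edgeR p under 0.05, which 20.8% of all tested genes reached. The median log2 fold change was −0.04, and the groups did not overlap for 6 higher and 8 lower genes, where 26.2% and 25.5% of all tested genes were higher and lower without overlap. Ncoa1, a coactivator of nuclear receptors and the gene that DESeq2 called, had 1366 and 1020 reads in shScramble and 822 and 930 in shYthdf2, without overlap (log2 fold change −0.49, SE 0.14, adjusted p = 0.089 by edgeR), and passed in 4 of the 13 other fits, DESeq2 included. Ppard, a nuclear receptor that can take retinoic acid as a ligand, had 1755 and 1623 reads against 2206 and 2287 (log2 fold change 0.36, SE 0.11, adjusted p = 0.11 by edgeR), and passed in 1 of 13, with the replicate block. Rxrg, the scarcest RXR, had 9 and 3 reads against 16 and 45, most of them in shYthdf2 replicate 2 (log2 fold change 2.28, SE 0.76, adjusted p = 0.13 by edgeR). Only shYthdf2 libraries exceeded the filter on low counts at 0.285 CPM, so Rxrg could enter the test only by being higher there. It passed in 3 of the 10 other fits that gave it an adjusted p, and its value was highest, at 3.14, without shScramble replicate 1 and lowest, with an adjusted p of 0.52, without shYthdf2 replicate 2. The other RXRs were much more abundant than Rxrg: Rxra had 1086 and 916 reads against 1348 and 1292 (log2 fold change 0.35, SE 0.13, adjusted p = 0.16 by edgeR), and Rxrb 2256 and 1800 against 2491 and 2260 (0.18, SE 0.12, adjusted p = 0.43).

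Genes known to respond to retinoic acid held the only edgeR calls of the pathway, 1 in each direction. Of 35 listed genes 31 were tested, and Tgm2 was called lower and Btg2 higher by edgeR, DESeq2 and limma-voom alike. By edgeR this was 2 of 31, beside 3.91% of all tested genes (2.43% higher and 1.49% lower). At an unadjusted edgeR p under 0.05, 5 were lower (Cdx1, Stra8, Tgm2, Bhlhe40 and Ret) and 2 higher (Gbx2 and Btg2), or 7 of 31 beside 20.8% of all tested genes. The median log2 fold change was −0.27, with 21 genes below 0 and 10 above, and the groups did not overlap for 14 lower and 5 higher genes, beside 25.5% and 26.2% of all tested genes.

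Tgm2 encodes transglutaminase 2, an enzyme that cross-links proteins and is strongly induced by retinoic acid in many cell types. It had 1553 and 2309 reads in shScramble and 277 and 361 in shYthdf2, or 12.2 and 20.7 against 2.28 and 2.84 RPKM. Both knockdown libraries were several times below both controls (log2 fold change −2.68, SE 0.24, adjusted p = 0.0015 by edgeR), and the call held in all 13 other fits, with values from −3.01 to −2.24. Btg2, an antiproliferative gene that responds to retinoic acid and also to p53, had 1493 and 1035 reads in shScramble and 3462 and 2578 in shYthdf2. Both knockdown libraries were above both controls (log2 fold change 1.22, SE 0.17, adjusted p = 0.0084 by edgeR), and this call too held in all 13 other fits, between 0.95 and 1.45.

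Stra8, the retinoic acid-induced gene needed for entry into meiosis, had 1174 and 1288 reads in shScramble and 884 and 825 in shYthdf2, without overlap (log2 fold change −0.59, SE 0.15, adjusted p = 0.068 by edgeR). It passed in 6 of the 13 other fits, and it is also on the germline list above, 3 of whose 11 genes were called lower. Cdx1, a caudal-type homeobox gene with 131 and 258 reads against 49 and 88, and Bhlhe40, a transcriptional repressor with 293 and 1096 reads against 188 and 222, also lay near the threshold (log2 fold changes −1.60 and −1.87, adjusted p = 0.069 and 0.075 by edgeR). For Bhlhe40 shScramble replicate 2 alone held most of the reads. The response list shares genes with the other lists, among them Stra6 with the uptake list, Nrip1 with the coregulators, Gata6, Pdgfra and Dab2 with the primitive endoderm markers, and Stra8 and Rec8 with the germline markers.

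**Figure D4:**
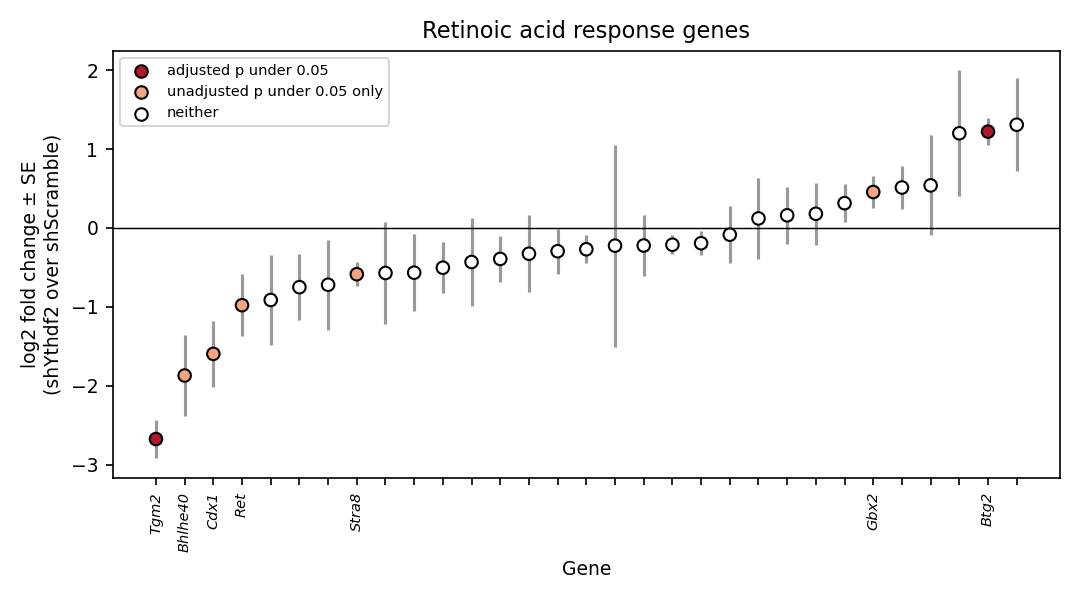
Each of the 31 tested retinoic acid response genes (x axis, ordered by value, named where the unadjusted edgeR p was under 0.05) is drawn with its log2 fold change in shYthdf2 over shScramble (y axis, point) and its SE (bar), filled dark red where the adjusted edgeR p was under 0.05 and light where only the unadjusted p was. Tgm2 at −2.68 and Btg2 at 1.22 are the called genes, and 21 of the 31 points lie below 0.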

How the data were processed

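Poly(A)-selected RNA from 4 libraries, 2 shScramble and 2 shYthdf2, was sequenced by the authors from both ends of stranded (dUTP) libraries, and groups and replicate numbers were taken from the library titles. The authors deposited raw read counts per gene, with no normalization and no pooling. Per the file headers and the submitters' processing notes, fastp (0.19.4), HISAT2 (2.2.1) and featureCounts (2.0.3) were used with mm10 and its RefSeq exons. Reads of a pair were counted one by one and without regard to strand, so small counts overstate the number of molecules. The study tested its genes with DESeq2 (1.40.2).

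Counts were tested here with edgeR's quasi-likelihood F test (edgeR 4.0.16, R 4.3.3): TMM scaling, filterByExpr with a minimum count of 10 and minimum total of 15, no covariate, two-sided, Benjamini-Hochberg adjustment over 18341 genes, which held 99.9% of reads. DESeq2 (1.42.0) and limma-voom (3.58.1) were alternatives, beside other scalings (RLE, upper quartile, library totals), no filter, a filter at a mean of 1 CPM, halved counts, leaving out each library, and the replicate number as a block. RPKM on transcript lengths was added after the data were seen. RPKM used TMM-scaled library sizes and the deposited lengths. Genes without an adjusted DESeq2 p were not counted. SEs were derived from the F statistics, and the biological coefficient of variation was 15.8%. Intervals cover counting error and the spread of 2 libraries per group only. The limit of 3 reads for a count of 0 covers counting error alone and treats reads as independent, which reads of a pair are not. Reads are not molecules, as no molecular identifiers were used. Scripts were tested on simulated data.

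The 9 genes and all lists were chosen with earlier results of these data known. Named genes were the 9, Ythdf2, the called genes of the other 3 pathway lists or up to 3 with the lowest unadjusted p, and in each marker list the gene with the highest RPKM and those at 0. For called members, genes of similar pattern were to be named, and with 0 called there are none. Genes named beyond this rule were chosen after their values were seen. Promoter windows were from RefSeq and transcripts from GENCODE (vM21, of the same build). Columns of the authors' own comparisons were not present in the table used. Some genes of the lists are not reported by name here.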

Additional observations from a re-analysis of the deposited data

How the results depend on the processing

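Of the retinoid genes, 8 of 9 passed in none of the 13 other fits, and 6 kept their sign in all that could test them. Cyp26a1 was the exception: the number of the 9 called lower rose from 0 to 1 with no filter (log2 fold change −2.44) and with the replicate block (−2.70), and was 0 to 1 when single libraries were left out (−7.48 to −1.45). Its counts were too low to enter the fits with a mean of 1 CPM or halved counts, and those of Cyp26b1 too low for the former. Signs turned, always near 0, for Rara (−0.022 without shYthdf2 replicate 1, up to 0.083), Rarg (−0.0083 without shScramble replicate 2, up to 0.37) and Crabp1 (0.059 without shScramble replicate 2, down to −0.32).

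Counts over all genes, 445 higher and 273 lower, were 1095 and 843 with no filter, 800 and 602 by DESeq2, and 534 to 1175 and 300 to 1113 when single libraries were left out, the most without shYthdf2 replicate 2. For retinol uptake, storage and oxidation, 0 called lower became 1 with no filter and 0 to 3 without single libraries. For RXRs and coregulators, 0 higher and 0 lower became 1 and 1 with no filter, 0 and 1 by DESeq2, and 0 to 1 and 0 to 3 without single libraries. For response genes, 1 higher and 1 lower became 2 and 4 with no filter, 1 and 3 by DESeq2, and 1 to 3 and 1 to 4 without single libraries. The median of the retinol list (−0.18) was −0.0068 with no filter, −0.022 by DESeq2, −0.30 with halved counts and −0.18 to 0.16 without single libraries, highest without shScramble replicate 1. Those of the coregulator and response lists ranged from −0.14 to 0.074 and from −0.32 to −0.18 without single libraries. With no filter more genes entered, and the cause of these shifts, those with no filter included, was not tested.

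Libraries share replicate numbers across groups, but nothing says that a number marks a shared culture or day. The correlation over genes of same-numbered deviations from the group mean was 0.225. With 2 libraries per group both pairs must give the same value, and crossed numbers its negative (−0.225), so it is no test of pairing. With the replicate block, 1851 genes were called higher and 1674 lower, with 3 lower in the retinol list, 3 higher and 3 lower among RXRs and coregulators, and 3 higher and 4 lower among response genes. Cyp26a1, Dhrs7, Rbp4, Rdh11, Ncoa1, Ppard, Rxrg and Stra8 passed only in fits that called more of all genes than the main fit did.

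Depth limits the 6 genes with at most 202 reads in any library (Cyp26a1, Cyp26b1, Rarb, Aldh1a2, Crabp2 and Dhrs3): the 95% interval of each reached beyond a log2 fold change of 1 in one direction, so a change of that size lies within the error for each of them.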

Other observations

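YTHDF2 recognises m6A, which is deposited most often at DRACH sequences such as GGACT in mRNA. In the longest coding transcript of each gene in GENCODE, GGACT occurred 9 times in Rara (2.66 per kilobase) and 6 times in Dhrs3 (2.57 per kilobase), more densely than in 96.3% and 95.7% of 14063 tested genes, whose median was 1.05 per kilobase. Cyp26a1 (1.12), Crabp2 (1.07), Rarb (0.965), Cyp26b1 (0.890) and Aldh1a2 (0.883) lay near that median, Rarg was lower (0.677), and Crabp1 had none. The densest pair by GGACT held the gene with the smallest difference of the 9 (Rara, log2 fold change 0.03, SE 0.11) and one whose shYthdf2 libraries were both above the controls (Dhrs3, 0.48, SE 0.26). Over all DRACH sequences the order was another: Crabp2 was the densest of the 9, at 25.8 per kilobase, and Rara had 23.0. Dhrs3, at 18.4, lay below the median of 20.1 for tested genes. A motif count says nothing of whether a site is methylated or bound, and neither was measured in these libraries.

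Within replicate numbers, which are not known to pair the cultures, the log2 ratio of shYthdf2 to shScramble in CPM was 0.69 and 0.28 for Dhrs3, 0.47 and 1.13 for Crabp2, and −0.05 and −0.68 for Aldh1a2. Crabp2, Aldh1a2 and Rarg thus differed mostly in replicate number 2, where shScramble replicate 2 was the library farthest from the other 3 in each of these genes.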
